A study of Mus musculus with 9 samples.

Results

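The genes described here are 6 markers of lymphatic endothelium: the transcription factor Prox1, the surface proteins Lyve1 and Pdpn, and the secreted proteins Ccl21a, Mmrn1 and Reln. They were taken by symbol from a table of 56748 genes, in which each had a single row, and all 6 passed the filter on low counts that left 19486 genes for testing. The 9 RNA libraries came from lung cells of C57BL/6 mice 6 weeks old, sorted as DAPI-, CD45- and CD31+, and so as living endothelium. There were 3 libraries each of the genotypes WT, DNMAML and Notch1f/f. The name DNMAML usually stands for a truncated Mastermind-like protein that competes with the normal coactivator of Notch and silences its targets, and Notch1f/f usually denotes a floxed Notch1 gene. Which recombinase acted, in which cells and after what treatment was not given in the sources used. The labels also do not say if each library was a different mouse. By Y-linked counts each genotype had male and female libraries, so those of a genotype were not all from the same mouse. The p-values therefore measure the spread between libraries, which may be technical in part.

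Lymphatic vessels drain fluid and carry leukocytes away from tissue. Their endothelium also has CD31 on its surface, so a sort for CD31 takes it together with blood endothelium. The genes below are commonly used to tell it apart. Bulk levels, however, do not show which cells, blood endothelium included, each transcript came from. Prox1 sets and keeps lymphatic identity. Lyve1 encodes a receptor for hyaluronan, Pdpn a mucin-like protein that binds CLEC-2 on platelets, and Ccl21a a chemokine that draws cells with the receptor CCR7 into lymphatic vessels. Mmrn1 encodes multimerin, an adhesive protein that platelets also store, and Reln encodes reelin, a large secreted glycoprotein. Other lung cells use some of these genes too: alveolar type 1 epithelium, fibroblasts and mesothelium express Pdpn, and some macrophages express Lyve1.

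Ccl21a has near-identical copies nearby on chromosome 4, so the sequence decides which reads can be counted for it. In the GENCODE M21 transcripts (GRCm38) the coding sequence is 402 bases long, and Ccl21a differs from each of 4 copies (Ccl21b, Gm10591, Gm13304 and Gm21541) at the same positions. The substitutions are T84A and C194T, given as the base of Ccl21a, the position from the start codon and the base of the copy. Bases 60 to 218 of the coding strand are shown for Ccl21a and for Ccl21b, with both differing bases in capitals.
Ccl21a: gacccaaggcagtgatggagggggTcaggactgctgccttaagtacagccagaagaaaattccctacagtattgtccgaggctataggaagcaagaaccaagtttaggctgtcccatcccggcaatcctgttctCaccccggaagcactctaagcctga
Ccl21b: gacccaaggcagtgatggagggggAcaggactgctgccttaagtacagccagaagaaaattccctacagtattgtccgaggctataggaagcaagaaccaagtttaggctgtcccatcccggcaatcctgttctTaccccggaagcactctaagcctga
Over the whole transcript of 870 bases Ccl21a and Gm21541 differed at 6 bases, and the longest stretch without a difference was 370 bases. A read that lies within such a stretch cannot be placed. Ccl21a nevertheless had 804 to 2603 counts per library, while the 4 copies together had 0 to 18, at most 1.3% of the sum. Gm13304 and Gm21541 had 0 counts in every library, where 3 counts would be 0.11 to 0.192 CPM. The counting program leaves out reads with several placements unless asked, and its recorded command did not ask, so the level of Ccl21a is uncertain.

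The labels and the depth were checked first. Total counts ran from 15522100 to 27842496 per library. Notch1 had 29.5 to 176 CPM (the count relative to the scaled library size) in Notch1f/f libraries and 679 to 909 CPM in the others. The endothelial genes Cdh5, Pecam1 and Kdr led a list of 12 pan-endothelial genes, whose summed level was 16647 to 20440 CPM, with 0 of 12 past the threshold in any comparison. The threshold was an adjusted p (Benjamini-Hochberg, over all 19486 genes) below 0.05 in edgeR's quasi-likelihood test. At an unadjusted p below 0.05 in this test stood 5 of the 12 for Notch1f/f against WT, beside 13.4% of all genes. Emcn and Robo4 were higher and Kdr, Flt1 and Tek lower. For DNMAML against WT it was 0 of 12 beside 5.97%, and for Notch1f/f against DNMAML 2 of 12 beside 6.37%.

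The 6 markers were not at 1 level, and the order of levels needs the length of each gene. Per kilobase of exon and averaged over the 9 libraries, Lyve1 had 133 ± 25.6 CPM, Ccl21a 83.2 ± 36.8, Mmrn1 15.9 ± 8.19, Pdpn 5.04 ± 1.81, Prox1 1.04 ± 0.341 and Reln 0.842 ± 0.335 (SD over 9 libraries). Lyve1 stood above Ccl21a in 8 of 9 libraries and Prox1 above Reln in 7 of 9, so neither pair of neighbours was separated in every library. The lengths, 8390 bases for Prox1 and 23738 for Reln, cover all exons counted for a gene and can exceed a transcript. The order of close neighbours depends on them. Ccl21a was above Mmrn1, Mmrn1 above Pdpn and Pdpn above Prox1 in 9 of 9. On the same scale Lyve1 was higher than 98.9% of the tested genes and Prox1 than 30.7%. Set against the endothelial cadherin Cdh5, the level per length of Prox1 was 0.0374% to 0.106% of that of Cdh5, and that of Lyve1 was 6.79% to 10.9%. Flt4, the receptor of the lymphatic growth factor VEGF-C, which blood capillaries can also express, had 2.42% to 3.12%. No library of lymphatic cells alone was used here, so these ratios were not turned into a share of cells. In a bulk sample fewer cells of a type and less RNA per cell cannot be told apart.

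**Figure D1:**
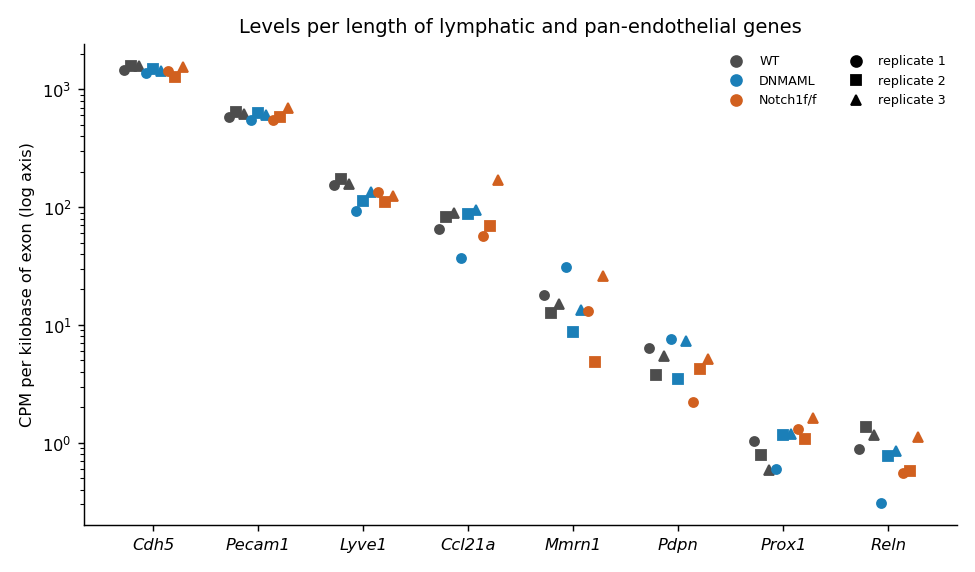
Level per kilobase of exon (CPM per kilobase, log axis) of the pan-endothelial genes Cdh5 and Pecam1 and of the 6 lymphatic markers in each of 9 libraries, coloured by genotype and shaped by replicate number. Lyve1 and Ccl21a lie within the range 37.1 to 173, and Prox1 and Reln near 1.

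Under this fit 0 of the 6 markers passed the threshold in each of the 3 comparisons. For DNMAML against WT, 0 of 6 passed, where 0.00513% of all genes did. For Notch1f/f against WT it was 0 of 6 beside 0.836% (0.513% higher and 0.323% lower), and for Notch1f/f against DNMAML 0 of 6 beside 0.0205% (0.0103% each way). DESeq2 and limma-voom also called 0 of 6 in each comparison. The shares of all genes just given are edgeR's, and DESeq2 called more genes for DNMAML against WT, as given in the last section. At an unadjusted p below 0.05 stood 1, 1 and 0 of 6, Lyve1 in both comparisons with WT, beside 5.97%, 13.4% and 6.37% of all genes. The median log2 difference of the 6 was 0.06 for DNMAML against WT, -0.22 for Notch1f/f against WT and 0.17 between them, beside 0.01, 0.02 and 0.00 over all genes tested. Both comparisons with WT share the WT libraries.

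**Figure D2:**
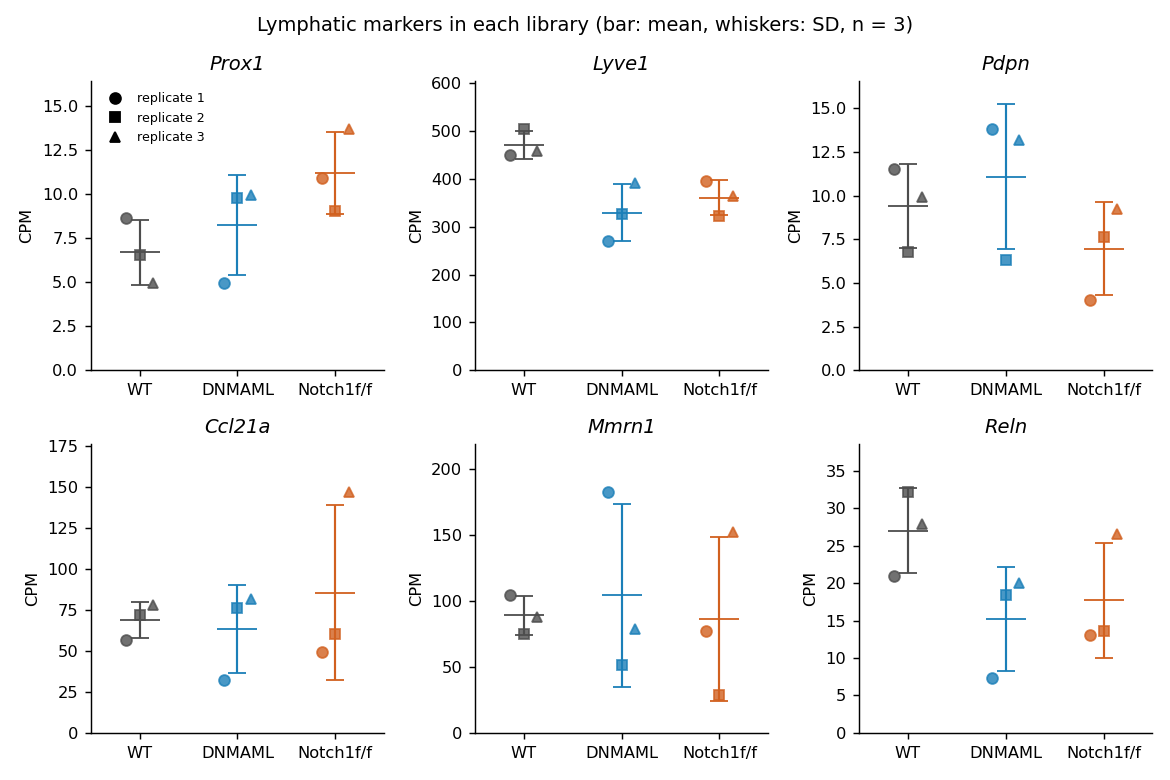
CPM of each marker by genotype, with 1 point per library, the mean as a bar and the SD as whiskers (n = 3 per genotype). All 6 DNMAML and Notch1f/f libraries lie below the WT libraries for Lyve1, while Ccl21a and Mmrn1 spread widely within DNMAML and Notch1f/f.

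Prox1 (ENSMUSG00000010175, chromosome 1, 189850232 to 189902911, GRCm39) is the marker that defines lymphatic cells most strictly. It had 8.63, 6.54 and 4.94 CPM in WT, 4.97, 9.79 and 9.98 CPM in DNMAML, and 10.9, 9.03 and 13.7 CPM in Notch1f/f libraries. Every Notch1f/f library was thus above every WT library, by a narrow gap from 8.63 to 9.03 CPM, while DNMAML overlapped both. The mean was 6.70 ± 1.85 CPM in WT and 11.2 ± 2.35 CPM in Notch1f/f (SD, n = 3). The log2 difference of 0.74 (SE 0.35, 95% interval -0.01 to 1.50) did not pass, with a Benjamini-Hochberg adjusted p = 0.38 in edgeR. For DNMAML against WT it was 0.30 (95% interval -0.45 to 1.05) and between Notch1f/f and DNMAML 0.44 (-0.30 to 1.19). These values rest on 97 to 273 counts per library. Antisense genes share 1.73% and 2.03% of the exon bases of Prox1, and the counting had no option for strand.

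Lyve1 (ENSMUSG00000030787, chromosome 7, 110449814 to 110462446), the hyaluronan receptor, was of the 6 markers the only one whose 3 WT libraries stood above all 6 others. Its level was 451, 504 and 459 CPM in WT, 271, 328 and 391 CPM in DNMAML, and 396, 323 and 364 CPM in Notch1f/f. The means were 471 ± 28.7, 330 ± 59.9 and 361 ± 36.6 CPM (SD, n = 3). For DNMAML the log2 difference from WT was -0.52 (SE 0.15, 95% interval -0.84 to -0.19), a 1.43-fold lower level, with an adjusted p = 0.382 in the edgeR test. For Notch1f/f it was -0.39 (SE 0.15, -0.71 to -0.06) with an adjusted p = 0.268. Lyve1 did not differ detectably between Notch1f/f and DNMAML, with 0.13 (95% interval -0.20 to 0.45). With the replicate number as a block in the 6 libraries of WT and DNMAML, Lyve1 passed, at -0.53 (SE 0.11, Benjamini-Hochberg adjusted p = 0.0449 in edgeR). The labels do not say that WT and DNMAML libraries of the same number are pairs. Each such pair joined a male and a female library by Y-linked counts, and the block has no term for sex. With sex as a term in all 9 libraries and no block, the log2 difference was -0.55 and the adjusted p = 0.311.

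Lyve1 is also a gene of some macrophages, which the CD45- gate should remove. The summed level of 14 macrophage genes was 38.5 to 67.5 CPM in WT, 37.5 to 121 in DNMAML and 50.3 to 69.7 in Notch1f/f, of which 7 passed the filter and 0 the threshold. Of these 7, 6 had a higher estimate than WT in DNMAML and 6 in Notch1f/f, with median log2 differences of 1.201 and 0.676, beside 0.01 and 0.02 over all genes. The mannose receptor gene Mrc1 had means of 7.76, 12.5 and 15.6 CPM in WT, DNMAML and Notch1f/f, with adjusted p = 0.788 and 0.13 against WT in edgeR. The macrophage genes Adgre1, C1qa, Cd163 and Folr2 reached at most 1.52, 0.999, 0.802 and 0.0999 CPM and were each at 0 in at least 1 library.

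**Figure D3:**
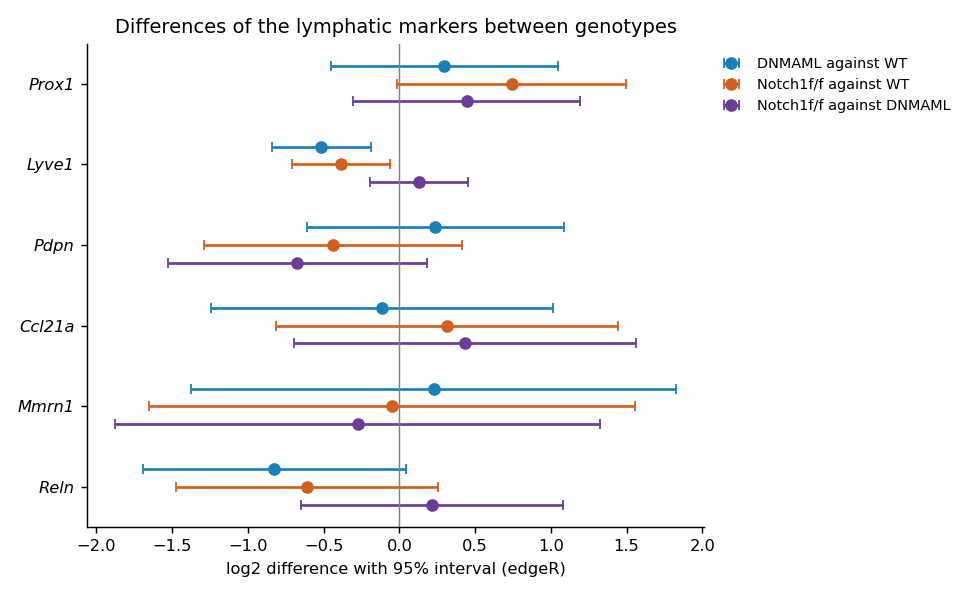
Log2 difference of each marker in the 3 comparisons, with its 95% interval from the edgeR quasi-likelihood fit (points: estimates, whiskers: intervals, grey line: no difference). The intervals of Lyve1 in both comparisons with WT lie below 0, and the other 16 reach 0 or cross it.

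Pdpn (ENSMUSG00000028583, chromosome 4, 142994001 to 143026134), the ligand of CLEC-2, had 11.5, 6.79 and 9.89 CPM in WT, 13.8, 6.29 and 13.2 CPM in DNMAML, and 4.03, 7.62 and 9.25 CPM in Notch1f/f. The genotypes overlapped in all comparisons. Its largest log2 difference was -0.67 (SE 0.39, 95% interval -1.53 to 0.18) between Notch1f/f and DNMAML, with an adjusted p = 0.917 in edgeR. The differences from WT were 0.24 in DNMAML and -0.44 in Notch1f/f.

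Across the 9 libraries Pdpn had positive r of similar size with the summed levels of fibroblast, alveolar and mesothelial genes. Only the relation with the fibroblast sum passed after adjustment. Summed over 13 fibroblast genes, among which Inmt, Npnt and Mfap4 had the highest mean CPM, the level was 2582, 699 and 1234 CPM in WT, 2787, 573 and 1599 CPM in DNMAML, and 285, 310 and 1009 CPM in Notch1f/f. Pearson's r of log2(CPM + 1) between Pdpn and this sum was 0.891 (exact permutation p = 0.00126, adjusted 0.0304 over 48 relations of a marker with a list) and Spearman's rho was 0.933 (exact permutation p = 0.00075, adjusted 0.036). Without the 2 libraries farthest from the median, replicates 1 and 2 of Notch1f/f, r was 0.928, and with the genotype means removed it was 0.868. With 12 genes of alveolar type 1 cells r was 0.836 (adjusted p = 0.0746 in the exact permutation test) and with 8 mesothelial genes 0.813 (adjusted p = 0.0871 in the same test). Emp2 and Clic5, which lung endothelium also expresses, held 81.5% to 92.7% of the alveolar sum, and without them, a step chosen after their values were seen, r was 0.972. The part of these cells in the level of Pdpn was not tested.

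Ccl21a (ENSMUSG00000094686, chromosome 4, 42772860 to 42773993), the chemokine whose sequence is given above, had 56.3, 71.5 and 77.7 CPM in WT. DNMAML libraries had 32.2, 76.0 and 81.7 CPM, and Notch1f/f 49.2, 60.3 and 147 CPM. Replicate 1 of DNMAML was the lowest and replicate 3 of Notch1f/f the highest of all 9. The log2 differences from WT were -0.11 (SE 0.48, 95% interval -1.24 to 1.01) in DNMAML and 0.32 (SE 0.48, -0.81 to 1.45) in Notch1f/f. Without replicate 1 of DNMAML the first became 0.20, and without replicate 3 of Notch1f/f the second became -0.33, so a single library set each direction.

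Mmrn1 (ENSMUSG00000054641, chromosome 6, 60901960 to 60966362), which encodes multimerin, varied widely among DNMAML and among Notch1f/f libraries and less among WT libraries. It had 105, 74.7 and 88.2 CPM in WT, 183, 51.5 and 78.6 CPM in DNMAML, and 77.6, 28.7 and 153 CPM in Notch1f/f. Mean levels were 89.2 ± 15.1, 104 ± 69.4 and 86.4 ± 62.5 CPM (SD, n = 3). The log2 differences were 0.23 (SE 0.67) for DNMAML and -0.05 (SE 0.67) for Notch1f/f against WT, with 95% intervals of -1.37 to 1.83 and -1.65 to 1.55. Without replicate 1 of DNMAML the first became -0.45, without replicate 2 of Notch1f/f the second became 0.37, and without that replicate Notch1f/f was 0.14 above DNMAML, against -0.27 with it.

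Platelet genes varied between the same libraries. Summed over 10 platelet and megakaryocyte genes, the level was 623, 149 and 198 CPM in WT, 1464, 106.8 and 133 CPM in DNMAML, and 530, 51.9 and 491 CPM in Notch1f/f. The highest and lowest values, in replicate 1 of DNMAML and replicate 2 of Notch1f/f, fell on the libraries with the highest and lowest Mmrn1. Between Mmrn1 and this sum Pearson's r was 0.888 (exact permutation p = 0.00112, adjusted 0.0304 over the 48 relations), and Spearman's rho 0.833 (exact permutation p = 0.00827, adjusted 0.0794). Without these 2 libraries r fell to 0.707. With the genotype means removed it was 0.899. The platelet chemokine Ppbp, the integrin Itga2b and the tubulin Tubb1 had the highest means of the list, and 0 of its 9 tested genes passed in any comparison. The relations of Mmrn1 with the fibroblast and alveolar sums (r = 0.722 and 0.700) did not pass, with adjusted exact permutation p = 0.149 and 0.155. The part of platelets in the level of Mmrn1 was not tested.

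**Figure D4:**
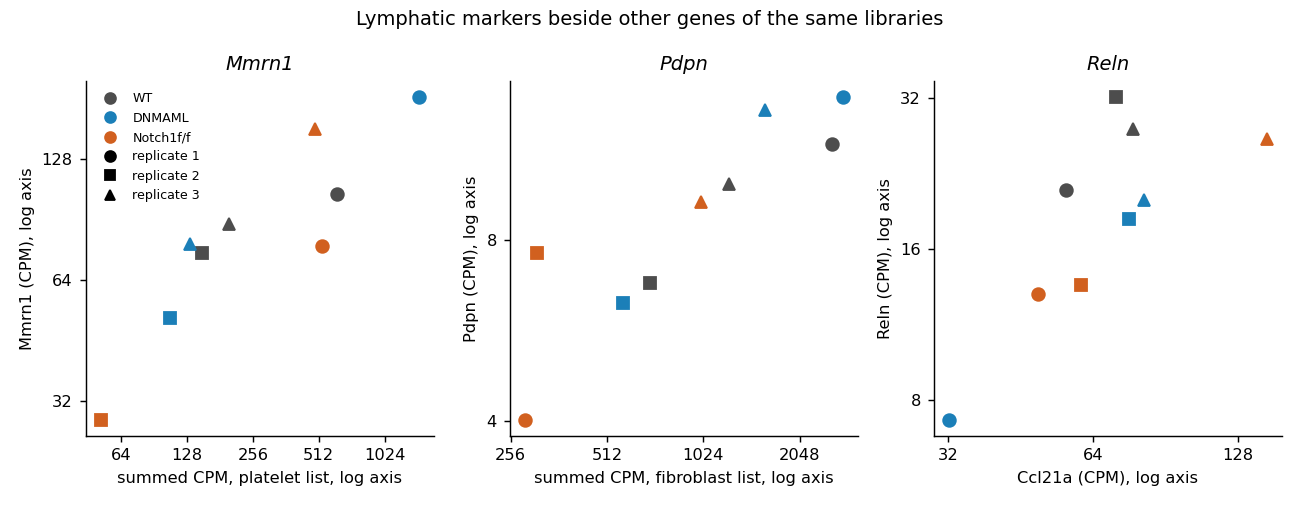
Mmrn1 against the summed platelet list, Pdpn against the summed fibroblast list and Reln against Ccl21a in the 9 libraries (CPM, both axes log2), coloured by genotype and shaped by replicate. Points rise from left to right in each panel, with r = 0.888, 0.891 and 0.776.

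Reln (ENSMUSG00000042453, chromosome 5, 22089452 to 22549700), the gene of reelin, had 21.0, 32.2 and 27.8 CPM in WT, 7.30, 18.4 and 20.0 CPM in DNMAML, and 13.02, 13.55 and 26.5 CPM in Notch1f/f. All DNMAML libraries lay below all WT libraries, by a narrow gap from 20.0 to 21.0 CPM, and replicate 3 of Notch1f/f overlapped WT. WT had a mean of 27.0 ± 5.63 CPM and DNMAML of 15.2 ± 6.92 CPM (SD, n = 3), a log2 difference of -0.83 (SE 0.39, 95% interval -1.69 to 0.04) with an adjusted p = 0.874 in edgeR. With the replicate block in the 6 libraries it was -0.92 (SE 0.21, Benjamini-Hochberg adjusted p = 0.0653), which did not pass either. For Notch1f/f the difference from WT was -0.61 (SE 0.39, -1.48 to 0.25). Gm10475, on the other strand, shares 1.04% of the exon bases of Reln.

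Groups that did not overlap were thus found for 2 of 6 markers in DNMAML against WT (Lyve1 and Reln, both lower), beside 14.4% of all genes, 6.84% lower and 7.58% higher. In Notch1f/f against WT it was 2 of 6 (Prox1 higher and Lyve1 lower), beside 17.8%, 8.5% higher and 9.33% lower. Between Notch1f/f and DNMAML it was 0 of 6, beside 9.72%, 4.4% higher and 5.32% lower.

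The 6 markers did not rank the libraries alike. Of 15 pairs of markers the strongest relations over the 9 libraries were those of Lyve1 with Reln (r = 0.814, exact permutation p = 0.0074, adjusted 0.111; rho = 0.767, adjusted 0.321) and of Ccl21a with Reln (r = 0.776, exact permutation p = 0.0162, adjusted 0.122; rho = 0.633, adjusted 0.38). Neither passed after adjustment over the 15 pairs. Without the 2 libraries farthest from the median of Reln, replicate 2 of WT and replicate 1 of DNMAML, these r were 0.485 and 0.705. With genotype means removed they were 0.673 and 0.959. Prox1 had r = -0.06 with Lyve1, -0.36 with Pdpn, -0.18 with Mmrn1, 0.15 with Reln and 0.55 with Ccl21a. With genotype means removed, these r of Prox1 were, in the same order, 0.639, -0.124, -0.0619, 0.668 and 0.62. Prox1 thus varied more alike with Lyve1 and Reln within genotypes than over all libraries. In replicate 3 of Notch1f/f both Prox1 and Ccl21a had their highest value, and in replicate 1 of DNMAML Ccl21a, Reln and Lyve1 had their lowest while Mmrn1 and Pdpn had their highest. The summed CPM of the 6 genes was 442 to 713, of which Lyve1 alone made up 51.0% to 73.0%.

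**Figure D5:**
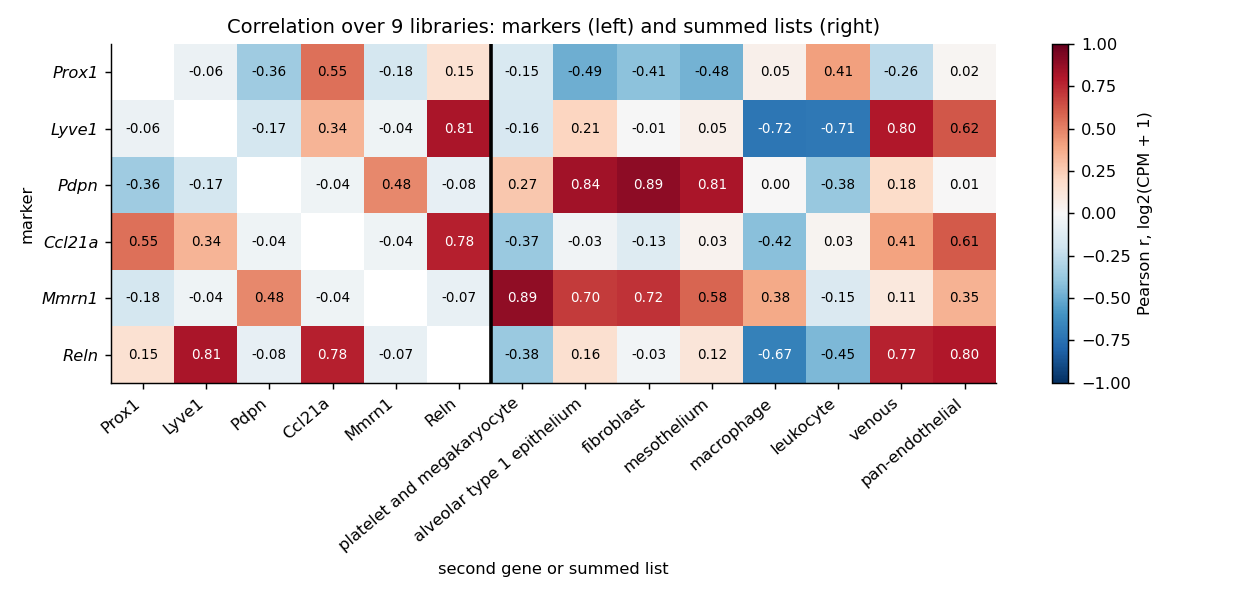
Pearson's r of log2(CPM + 1) over 9 libraries between each marker (rows) and each other marker or summed gene list (columns), from blue at -1 to red at 1. Mmrn1 is highest with the platelet list (0.89), Pdpn with the fibroblast list (0.89) and Lyve1 with Reln (0.81).

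Among 12729 other genes with a mean of at least 1 CPM and a symbol that is no clone or model name, those most like each marker over the 9 libraries were found by Pearson's r of log2(CPM + 1). The search takes the highest of many values and the genes share library and depth, so r is given as a description. For Lyve1 they were Kdsr (0.994), an enzyme of sphingolipid synthesis, Epc1 (0.942) and Ncoa3 (0.936). For Pdpn they were Scnn1g (0.985), a subunit of the epithelial sodium channel that was on the alveolar list, the chloride channel Ano1 (0.984) and Otulin (0.976). For Ccl21a they were Cav1 (0.965), which forms caveolae, Cops6 (0.940) and Fmnl3 (0.938). Mmrn1 had Nadk2 (0.970), Pygl (0.953) and Ormdl3 (0.952). Prox1 had Tamm41 (0.910) and Pop4 (0.907), and Reln had Hspa12a (0.939), Dctn5 (0.926) and Nat9 (0.923). No marker was among the first 3 of another.

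Of 20 other lymphatic markers, 18 were tested and 0 passed in any comparison. Their median log2 difference was -0.09 for DNMAML and 0.08 for Notch1f/f against WT, beside 0.01 and 0.02 over all genes. At an unadjusted p below 0.05 in edgeR stood 0 of 18 for DNMAML and 6 of 18 for Notch1f/f against WT, beside 5.97% and 13.4% of all genes. Between Notch1f/f and DNMAML it was 2 of 18 beside 6.37%. Of the 6, Nrp2 and Nts were higher and Gata2, Ackr2, Ackr4 and Maf lower, so the median covers opposite estimates. Flt4 had 309 ± 11.2, 339 ± 38.8 and 337 ± 24.9 CPM in WT, DNMAML and Notch1f/f (SD, n = 3). Gata2, a transcription factor of lymphatic valves and of blood endothelium, had 420 ± 37.1, 343 ± 39.5 and 260 ± 87.5 CPM, and the chemokine-scavenging receptor Ackr2 had 250 ± 48.3, 195 ± 59.4 and 159 ± 17.3 CPM. Foxc2, a transcription factor of lymphatic valves, was at most 1.04 CPM. Blood endothelium expresses both Flt4 and Gata2.

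Genes that drive lymphatic growth were described by a list of 26, of which 25 were tested. In Notch1f/f against WT 1 of 25 rose and 0 fell, beside 0.513% of all genes higher and 0.323% lower. The gene that rose was the gap junction gene Gja1, from 14.5, 10.5 and 19.0 CPM to 62.4, 84.9 and 40.6 CPM, a log2 change of 2.10 (SE 0.32, Benjamini-Hochberg adjusted p = 0.0196 in edgeR). Every Notch1f/f library exceeded every WT library. Over 18 other settings, run for Gja1 after its value was seen, the log2 change was 1.82 to 2.33 and 14 kept the call. It was lost without replicate 1 of WT (adjusted p = 0.108), without replicate 2 of WT (0.077), without replicate 2 of Notch1f/f (0.0605), and with the replicate block in 6 libraries (0.0958), all in edgeR. Ramp2, a subunit of the adrenomedullin receptor, had 1129 ± 136 CPM in WT and 649 ± 134 CPM in Notch1f/f and missed the threshold (adjusted p = 0.0525 in edgeR). The list's median log2 difference was -0.46 in Notch1f/f and -0.13 in DNMAML against WT, beside 0.02 and 0.01 over all genes. In DNMAML against WT and between Notch1f/f and DNMAML 0 of 25 passed. Kdr, Tek and Tie1 are also on the pan-endothelial list, and Tek held the median in Notch1f/f. The lowest estimates there, of Ccbe1 and Vegfd (both -2.02) and Svep1 (-1.95), were of genes highest in replicate 1 of WT and of DNMAML. The fibroblast sum was also highest in these libraries, and the part of fibroblasts was not tested. The median thus does not describe lymphatic cells alone. The growth factor gene Vegfc had 61.2 ± 14.4, 21.4 ± 8.42 and 32.8 ± 9.90 CPM in WT, DNMAML and Notch1f/f. Its differences from WT were -1.52 (SE 0.32) and -0.90 (SE 0.31), with adjusted p = 0.172 and 0.219 in edgeR, so neither passed.

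Partners of the marker proteins were looked up as well. Of 9 genes, 8 were tested and 0 passed in any comparison, with median log2 differences of 0.17 for DNMAML and 0.01 for Notch1f/f against WT. Msn, Cd9 and Ezr, of which Msn and Ezr link podoplanin to actin, had the highest mean CPM. Clec1b, the platelet receptor of podoplanin, had 49.3, 31.1 and 22.3 CPM in WT, 103, 35.7 and 23.6 CPM in DNMAML, and 60.5, 14.7 and 37.0 CPM in Notch1f/f. It was highest in the library with the highest platelet sum, but it is itself part of that sum. Ccr7, the receptor of Ccl21a on leukocytes, had a mean of 0.77, 1.86 and 0.83 CPM. Dab1, which acts downstream of reelin receptors, had 0 counts in every library, where 3 counts would be 0.11 to 0.192 CPM.

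Venous endothelium shares the CD31+ gate, and genes of leukocytes, which the CD45- gate should remove, were listed as a check of it. The venous sum, led by Vwf, Ephb4 and Slc6a2, was 2449 to 2922 CPM in WT, 1440 to 1906 CPM in DNMAML and 1664 to 2282 CPM in Notch1f/f, with 0 of 9 genes past the threshold. Vwf weighed most in it, with means of 1759, 864 and 1085 CPM. The median log2 difference of the 9 genes from WT was -0.14 in DNMAML (3 higher, 6 lower). In Notch1f/f it was 0.06 (5 higher, 4 lower), so the sum does not describe the venous genes alike. The relation of the venous sum with Lyve1 did not pass after adjustment (r = 0.801, exact permutation p = 0.0109, adjusted 0.0871; rho = 0.750, adjusted 0.153), and r was 0.639 without replicates 2 and 3 of WT and 0.258 with genotype means removed. That with Reln did not pass either (r = 0.767, adjusted exact permutation p = 0.1), and r was 0.586 with genotype means removed. Reln had r = 0.799 with the pan-endothelial sum, which did not pass (adjusted exact permutation p = 0.0871). With genotype means removed this r was 0.833, so the relation of Reln was not particular to the venous list. The leukocyte sum, led by Lcp1, S100a9 and Ptprc, was 94.2 to 124 CPM in WT, 91.9 to 330.4 CPM in DNMAML and 231 to 299 CPM in Notch1f/f. Lcp1 alone held 62.3% to 96% of it. Without Lcp1, a step chosen after its values were seen, the sum was 16.8, 7.43 and 5 CPM in WT, 72.7, 125 and 6.87 CPM in DNMAML, and 34.4, 18.6 and 15.7 CPM in Notch1f/f. The relations of Lyve1 with the macrophage and leukocyte sums did not pass (r = -0.72 and -0.715, adjusted exact permutation p = 0.155 for each). What part these cells have in the levels of Lyve1 was not tested.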

How the data were processed

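RNA libraries of sorted lung endothelial cells were made in 1 batch with depletion of ribosomal RNA and a strand-specific kit, per the labels' protocols. The authors deposited raw counts of reads for each gene, with exon lengths. Per the file headers, featureCounts 2.0.1 and an Ensembl annotation of GRCm39 were used, with no option for strand, pairs or reads with several placements. STAR 2.7 and, unlike the header, mm10 are named in the submitters' processing notes. Of counts below 200, between 76.6% and 89% per library were even, so counts may not be independent fragments. Floors of 3 counts cover counting error only.

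Symbols came from GENCODE M21 (GRCm38), which matched 52073 of 56748 identifiers; coordinates are those of the table. Genes were filtered with filterByExpr, scaled by TMM and fitted with edgeR 4.0.16 in R 4.3.3 (quasi-likelihood, robust, genotype only, all 9 libraries), with Benjamini-Hochberg adjustment over all 19486 genes. An SE is the absolute log2 difference divided by the root of F, so it restates the test. The fit was checked on simulated data. Correlations used exact permutation of the 9 libraries, 2-sided. DESeq2 1.42.0, limma-voom (limma 3.58.1), other scalings, no filter, 6 libraries, sex as a term, a replicate block and leaving out each library were tried. The genes named besides the 6 markers are, of each list, those past the threshold or else the 3 with the highest mean CPM, and the 3 genes most like each marker; some genes under this rule are not reported here. Copies of Ccl21a were matched by RefSeq synonyms. Kdr, Foxc2, Ramp2, Vegfc, Clec1b, Ccr7, Dab1, Scnn1g and the macrophage genes were named after their values were seen. So were Tek, Tie1, Ccbe1, Vegfd, Svep1, Nrp2, Nts, Ackr4, Maf, Emcn, Robo4 and Flt1. Members and lists were chosen with earlier results of these data known.

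The labels do not say what a replicate number marks. Deviations from the genotype mean correlated at 0.238, 0.344 and 0.179 between WT and DNMAML libraries that share a number. Between WT and DNMAML libraries of different number the values were -0.27 to 0.0774. For Notch1f/f with WT libraries of the same number they were -0.13, -0.0244 and 0.191. Replicate 1 of Notch1f/f, however, reached 0.352 with replicate 2 of WT and 0.306 with replicate 2 of DNMAML. The correlations thus do not settle which libraries are paired. By Y-linked counts 1 WT library, 2 DNMAML libraries and 1 Notch1f/f library were male.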

Additional observations from a re-analysis of the deposited data

How the results depend on the processing

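The count of markers past the threshold was 0 of 6 in each comparison under every setting tried except the replicate block, that is the pairing by number, in only the 6 libraries of WT and DNMAML, where it was 1 (Lyve1, log2 difference -0.53, adjusted p = 0.0449); over all genes that fit called 212 higher and 98 lower, the same 6 libraries without the block 65 and 13, and all 9 libraries without it 1 and 0. The block in all 9 libraries gave Lyve1 an adjusted p = 0.441, and the blocks changed no other call of a marker. Over all 18 settings the adjusted p of Lyve1 was 0.0449 to 1 for DNMAML and 0.15 to 0.684 for Notch1f/f against WT, and its direction held. Prox1 in Notch1f/f kept its direction too, from 0.56 to 0.97 on the log2 scale, and scaling to the pan-endothelial list gave 0.82. Of 324 alternative values of the log2 differences, 312 kept direction and call and 11 changed sign, all 11 when a single library was left out. The ranges over these 9 fits were -0.34 to 0.20 for Ccl21a and -0.45 to 0.56 for Mmrn1 in DNMAML against WT, -0.33 to 0.59 for Ccl21a and -0.75 to 0.37 for Mmrn1 in Notch1f/f against WT, and -0.21 to 0.70 for Ccl21a, -0.98 to 0.40 for Mmrn1 and -0.20 to 0.47 for Reln between Notch1f/f and DNMAML. By Spearman's rho the first 3 genes most like a marker shared at most 1 gene with those by Pearson's r. Without the filter 361 genes were called higher and 99 lower for DNMAML against WT, and DESeq2 called 175 and 38. At 90 to 360 counts per library for Pdpn and 97 to 273 for Prox1, the intervals given above allow changes of over 2-fold.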
